A study of Mus musculus with 12 samples.

Results

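Cytosolic ribosomal protein genes were followed in humeri of mouse embryos that lack Runx2 and of wild-type embryos. Members were all probe sets with exactly 1 annotated gene symbol, where that symbol starts with Rpl or Rps and a digit or is Rplp0, Rplp1, Rplp2 or Rpsa. Symbols of the Rps6k kinases and of pseudogenes were left out. The rule gave 45 genes out of 15964 named on the arrays, measured by 71 of the 36701 probe sets other than controls, and 17 of the genes had more than 1 probe set. Array type A carried 49 members, B carried 2 and C carried 20. The rule also takes in paralogs (Rpl3l, Rpl7l1, Rpl10l, Rpl39l, Rps4l and Rps27l) and Rps19bp1, which encodes a protein that binds Rps19 and is not itself a ribosomal protein. A further 52 probe sets name several genes, 1 of them a ribosomal protein gene, and are no members.

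Runx2 is the transcription factor without which no osteoblasts form, and it also drives hypertrophy of cartilage cells in long bones such as the humerus. The Runx2-null group (Runx2 -/-) had 2 RNA pools of about 60 humeri each, and the wild-type group had 2 pools of about 75 humeri each, all at E14.5, from whole humeri in which cells of several types are mixed. Every pool was hybridised to short-oligonucleotide array types A, B and C (MG_U74Av2, MG_U74Bv2 and MG_U74Cv2), which gave 12 arrays. The deletion was not checked here through the level of the targeted gene, which is not analysed here.

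The cytosolic ribosome joins a small subunit, which reads the mRNA, to a large subunit, which forms peptide bonds. Each subunit is built on ribosomal RNA from many small proteins, most of them present once per ribosome, and their genes are highly expressed in growing cells. Their mRNAs start within a stretch of pyrimidines through which growth signals such as mTOR control their translation, a step that mRNA levels do not show.

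Values are MAS5 signals in intensity units. Differences are Runx2-null minus wild type on the scale log2(signal + 7) for array type A, where the added 7 shrinks the change of a dim gene. Only probe sets brighter than the 40th percentile on 2 or more arrays of a type entered the test, which left 32 of 49 members on A, 1 of 2 on B and 16 of 20 on C. A member that passed through its brighter genotype alone was more likely to differ, so counts over tested members do not stand for all 71. A call is an adjusted p of at most 0.05 from limma with Benjamini-Hochberg adjustment over all 23193 tested probe sets. The replicate numbers equal 2 scan batches with different scanner settings, each holding both genotypes, so a second fit had this number as a block, and differences were also taken inside each number.

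Array type C stood apart in its control signals. It was set apart with earlier results of these data known, in which C went against its labels. On A, the bacterial BioB spike probes summed to 481 and 76.6 in Runx2-null pools 1 and 2, against 392 and 72.6 in wild-type pools 1 and 2, so they split by replicate number. On C the same probes summed to 396 and 389 on the arrays labelled Runx2-null, against 1618 and 2146 on those labelled wild type. The actin 3' to 5' ratio on C was 1.61 and 1.84 on arrays labelled Runx2-null, against 1.10 and 1.08 on arrays labelled wild type, whereas on A it was near 1 in pools 1 of both genotypes and 1.95 and 1.68 in pools 2 of Runx2-null and wild type. On C, genotype as labelled and these control signals cannot be told apart, and its members are kept separate below.

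On the deposited scale, all bright ribosomal protein probe sets on array type A had somewhat higher signals in the Runx2-null pools than in wild type. After quantile normalization, which gives equal ranks the same value on every array, most of this difference was gone and 2 of 22 were not higher. Bright means above the 95th percentile of mean log2 signal, a cut chosen after the values were seen; Rpl13a at percentile 96.6 was the member just inside it and Rps4l at 89.8 the one just outside. All 22 bright probe sets, for 20 genes, were higher in Runx2-null within both replicate numbers. Their median difference was 0.25, with a range of 0.08 to 0.35 and medians of 0.27 in replicate 1 and 0.21 in replicate 2, whereas all 622 bright tested probe sets on A had a median of 0.06, with 48.7% higher within both replicate numbers. The highest array was always a Runx2-null pool, pool 1 for 14 and pool 2 for 8 of these probe sets, and the lowest was always a wild-type pool, pool 1 for 13 and pool 2 for 9. Of all bright tested probe sets on A, 25.9% were highest in Runx2-null pool 1 and 35.2% in Runx2-null pool 2. Lowest in wild-type pool 1 were 41.0%, and in wild-type pool 2 20.1%. Summed over the 49 members on A, their share of the total signal was 4.62% and 4.34% in Runx2-null pools 1 and 2, against 3.95% and 3.81% in wild-type pools 1 and 2.

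In the planned fit these shifts gave no call, and their size depended on the scaling. In that fit without a block, 0 of the 33 members tested on A and B were called, where 0.0256% of all tested probe sets there were called, all of them lower. At an unadjusted p under 0.05 it gave 0 members higher and 1 lower, where 0.705% of all were higher and 1.35% lower. With the replicate block, limma called 5 members higher, where 0.904% of all tested probe sets were called higher, and 1 lower, where 1.29% were. After quantile normalization between arrays, the bright members' median was 0.06, with 20 of 22 higher and 12 higher within both replicate numbers, and 0 members were called higher with the block. This scaling removes by itself a shift that the brightest probe sets share, and 18 of the 22 were in the brightest 1%. Rpl41 in replicate 1 and Rplp0 in replicate 2 became exactly 0 and so count as not higher within both numbers. Centring each array on its median kept the bright median at 0.24, with 20 higher within both replicate numbers, but also left 0 called higher with the block. The block fit without a variance trend called 0 members in either direction.

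**Figure D1:**
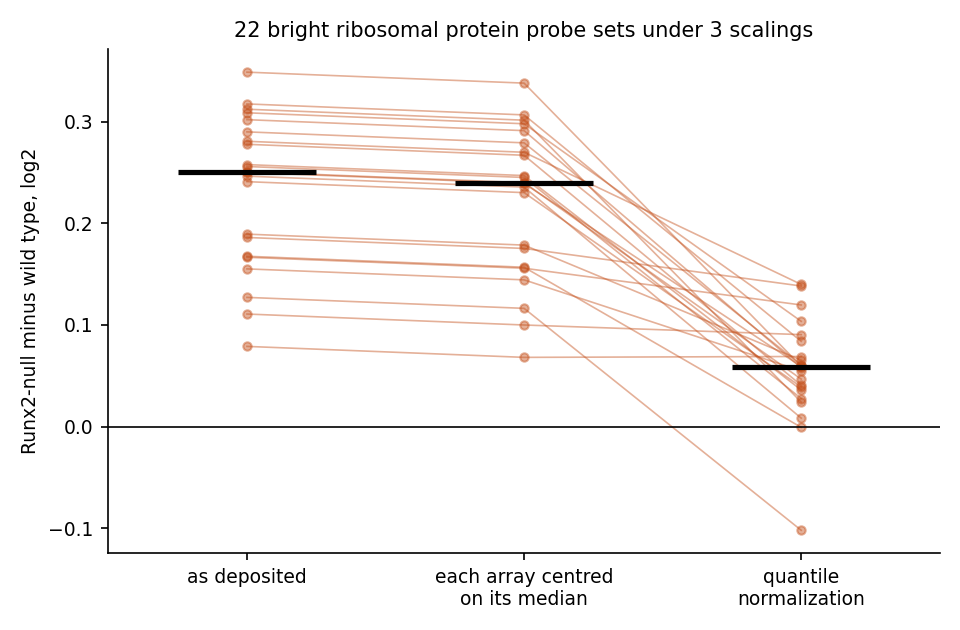
Genotype difference (Runx2-null minus wild type, log2, mean over both replicate numbers) of the 22 bright ribosomal protein probe sets on array type A under 3 scalings. Each point is a probe set, lines join the same probe set, black bars are medians; the median is 0.25 as deposited, 0.24 after centring each array on its median and 0.06 after quantile normalization, where the lowest point is Rpl7 at -0.10.

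Some control signals on A moved with the bright members and others did not. The Cre spike probes, which report transcripts added at hybridisation, summed to 9407 and 3531 in Runx2-null pools 1 and 2 on A, against 6664 and 3169 in wild-type pools 1 and 2. The 3' Gapdh control probe set read 3960 and 3673 in Runx2-null pools and 3449 and 3326 in wild-type pools. Both were higher in Runx2-null within each replicate number, as were the BioB spike probes and the 3' actin and 5' Gapdh control probe sets. In log2, the differences in replicates 1 and 2 were 0.30 and 0.08 for BioB. They were 0.21 and 0.03 for 3' actin, and 0.20 and 0.04 for 5' Gapdh. The 5' actin and both 18S control probe sets were higher in Runx2-null in replicate 1 and lower in replicate 2, where they read 2205 (actin 5'), 194 (18S 3') and 31.3 (18S 5') in Runx2-null, against 2521, 216 and 38.5 in wild type. Markers of bone cells, 4 of 4 tested, summed to 5063 and 3777 in Runx2-null pools 1 and 2, against 7812 and 7465 in wild-type pools 1 and 2. Ibsp and Dmp1 were near background in Runx2-null, and no marker of any list was at 0. Erythroid markers, 4 of 5 tested, summed to 3746 and 2630 in Runx2-null pools and to 4225 and 2977 in wild-type pools. Cartilage markers, 5 of 8 tested, summed to 9555 and 11390 in Runx2-null pools and to 8562 and 11189 in wild-type pools; Acan and Col9a1 were bright in every pool, and the Col2a1 probe set was near background. The bone and erythroid sums were lower in Runx2-null within each replicate number. The erythroid sum was lower through Hba-a1 and Hbb-y. Alas2 was higher in both numbers (0.13 in replicate 1 and 0.09 in replicate 2), and Hbb-bh1 was mixed (-0.34 and 0.36). The cartilage sums were higher in Runx2-null through Col9a1 (0.33 in replicate 1 and 0.16 in replicate 2). Of the 5 tested cartilage markers 3, Acan, Sox9 and Hapln1, were lower in Runx2-null within both numbers. Hapln1 was called (-0.71, adjusted p = 0.00177 with the block). Muscle markers, 5 of 5 tested, summed to 3441 and 674 in Runx2-null pools and to 2765 and 842 in wild-type pools. Endothelial markers, 3 of 3, summed to 255 and 148 in Runx2-null pools and to 311 and 195 in wild-type pools, and of 3 neural markers only Tubb3 was tested. The endothelial sums, and each of the 3 endothelial markers, were lower in Runx2-null within both replicate numbers, and muscle sums followed the replicate number. The part of these tissues in the result was not tested, and in pooled tissue fewer cells of a type and less RNA per cell cannot be told apart.

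The 6 member genes called with the block, 5 higher and Rpl39l lower, are shown by their start regions. Any part of these sequences in the differences was not tested. Each stretch runs from 80 bases before to 20 bases after the annotated start, as transcribed, from RefSeq annotation of GRCm38.p6. Capitals mark matches on either strand to CCGGAAG (GABPA and other ETS factors), AAGATGGC (YY1), GGGCGG (SP1), TATAAA (a core promoter box) and CTTTCC (a pyrimidine tract), which do not overlap each other here.
Rpl41, chr10:128549149-128549248, minus strand: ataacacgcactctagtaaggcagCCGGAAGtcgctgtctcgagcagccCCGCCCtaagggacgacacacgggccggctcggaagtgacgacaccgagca
Rplp0, chr5:115559387-115559486, plus strand: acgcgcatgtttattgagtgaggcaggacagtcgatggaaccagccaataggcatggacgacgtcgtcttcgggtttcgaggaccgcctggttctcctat
Rps4x, chrX:102189372-102189471, minus strand: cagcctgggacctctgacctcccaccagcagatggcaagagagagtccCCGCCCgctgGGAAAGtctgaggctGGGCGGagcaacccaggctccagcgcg
Rps3a1, chr3:86142649-86142748, minus strand: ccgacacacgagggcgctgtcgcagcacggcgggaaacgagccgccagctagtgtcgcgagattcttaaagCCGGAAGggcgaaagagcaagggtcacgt
Rps10, chr17:27635225-27635324, minus strand: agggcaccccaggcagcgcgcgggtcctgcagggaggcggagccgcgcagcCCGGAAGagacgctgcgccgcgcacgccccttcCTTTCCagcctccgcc
Rpl39l, chr16:10170148-10170247, plus strand: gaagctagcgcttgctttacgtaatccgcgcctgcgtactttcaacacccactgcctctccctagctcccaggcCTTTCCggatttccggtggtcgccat

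In these stretches CCGGAAG occurred in Rpl41, Rps3a1 and Rps10, GGGCGG in Rpl41 and Rps4x, and CTTTCC in Rps4x, Rps10 and Rpl39l. The CTTTCC match of Rps4x was on the opposite strand and is printed as GGAAAG. Only in Rps10 did CTTTCC lie after the annotated start, at position 5. Over the full 300-base windows, 38 of the 45 member genes had 48 windows, because some genes have several starts. CCGGAAG was in 33.3% of the member windows and in 8.86% of all 32851 windows. AAGATGGC was in 16.7% of member windows against 2.75% of all windows, GGGCGG in 58.3% against 35.7%, CTTTCC in 45.8% against 26.6%, and TATAAA in 8.33% against 13.6%. A match describes these letters on either strand of the window and is not a binding site. The CTTTCC shares are therefore no count of mRNAs that start with pyrimidines.

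Among large-subunit genes, Rpl41 was the brightest probe set of array type A. Rpl41 encodes the shortest protein of the ribosome. It read 8718 and 5831 in Runx2-null pools 1 and 2, against 6786 and 4617 in wild-type pools 1 and 2. Pool 1 was brighter than pool 2 in both genotypes and the genotypes overlapped, since wild-type pool 1 exceeded Runx2-null pool 2, but Runx2-null was the higher within each replicate number. Rpl41 rose by 0.35 (SE 0.07, adjusted p = 0.0157 with the block), and its unadjusted p without the block was 0.238. Without the block, leaving out Runx2-null pool 1 or wild-type pool 2 took the difference to 0.06 or 0.07, and leaving out Runx2-null pool 2 or wild-type pool 1 to 0.64 or 0.63. Its probe set has the suffix _f, which marks probes shared with related transcripts.

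Rplp0, the scaffold of the stalk that draws elongation factors to the large subunit, read 6062 and 4915 in Runx2-null pools 1 and 2, against 4640 and 4163 in wild-type pools 1 and 2. Both Runx2-null pools were above both wild-type pools, by a narrow margin between Runx2-null pool 2 and wild-type pool 1. It rose by 0.31 (SE 0.07, adjusted p = 0.0372 with the block). Its unadjusted p without the block was 0.0988, and without Runx2-null pool 1 the difference was 0.16. With the block, a fit that leaves out 1 pool has no residual degrees of freedom, so these calls have no such check beyond the values within each replicate number.

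The small subunit gave 3 calls with the block. Rps4x, an X-linked gene of the small subunit, read 4544 and 4510 in Runx2-null pools 1 and 2, against 3540 and 3726 in wild-type pools 1 and 2, and rose by 0.32 (SE 0.07, adjusted p = 0.0336). Rps3a1 read 5052 and 4996 in Runx2-null pools 1 and 2, against 4041 and 4176 in wild-type pools 1 and 2, and rose by 0.29 (SE 0.07, adjusted p = 0.0457). Rps10, a protein near the mRNA entry of the small subunit, read 3431 and 3224 in Runx2-null pools 1 and 2, against 2607 and 2763 in wild-type pools 1 and 2, and rose by 0.31 (SE 0.07, adjusted p = 0.0498). In each of these genes both Runx2-null pools lay above both wild-type pools. After quantile normalization the 5 differences were 0.06 for Rpl41, 0.02 for Rplp0, 0.08 for Rps4x, 0.06 for Rps3a1 and 0.10 for Rps10, with adjusted p from 0.466 to 0.89 with the block.

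**Figure D2:**
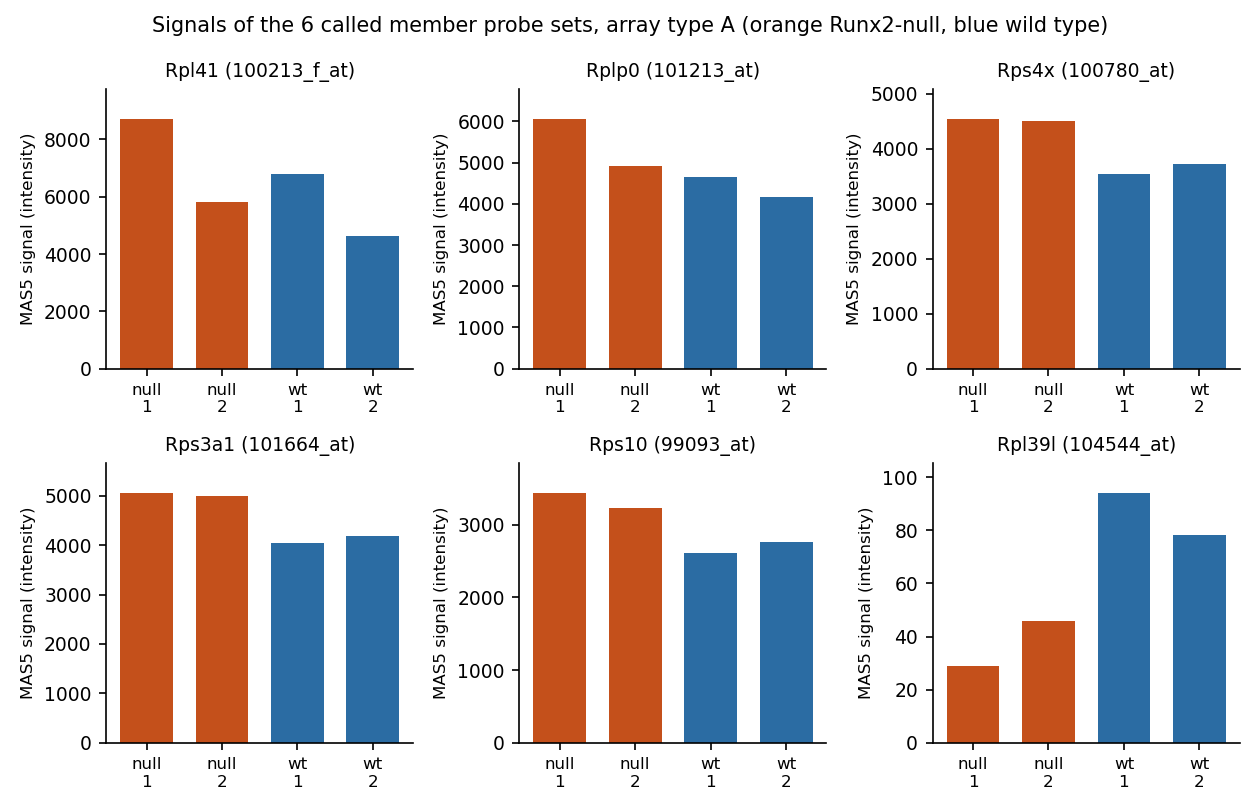
MAS5 signals (intensity, linear axis from 0) of the 6 member probe sets called with the replicate block on array type A, in Runx2-null pools 1 and 2 (orange) and wild-type pools 1 and 2 (blue); each bar is 1 array. The genotypes overlap for Rpl41 only, and Rpl39l is the only one of the 6 that is dimmer in Runx2-null.

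Rpl39l, a paralog of Rpl39 that is known in mouse from the testis, moved the other way. It was dim, with 29 and 46 in Runx2-null pools 1 and 2, against 94 and 78.4 in wild-type pools 1 and 2, and the genotypes did not overlap. The difference was -1.49 in replicate 1 and -0.69 in replicate 2. It fell by 1.09 (SE 0.22, adjusted p = 0.0229 with the block), with an unadjusted p of 0.0141 without it. The call with the block held after quantile normalization (adjusted p = 0.035) and was lost without a variance trend (adjusted p = 0.264). Rps4l, the paralog of Rps4x, was the only other member tested on A and B that was lower in Runx2-null within both replicate numbers. It read 249 and 249 in Runx2-null pools 1 and 2, against 315 and 329 in wild-type pools 1 and 2, a difference of -0.36 (adjusted p = 0.101 with the block), so the X-linked gene and its paralog lay on opposite sides of 0.

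On the deposited scale, the 11 bright small-subunit probe sets had a median difference of 0.26 and the 10 of the large subunit 0.18. After quantile normalization these medians were 0.058 and 0.062, with Rpl19 the highest of the large subunit at 0.14 and Rpsa the highest of the small subunit at 0.12, so no order of the subunits is read from them. Both Runx2-null pools lay above both wild-type pools for 10 of the small-subunit and 4 of the large-subunit probe sets on the deposited scale, where 22.8% of all bright tested probe sets on A did so. After quantile normalization 1 of the small-subunit and 0 of the large-subunit ones did. Rps19, whose human gene is mutated in Diamond-Blackfan anaemia, read 3942 and 3515 in Runx2-null pools 1 and 2, against 3010 and 3028 in wild-type pools 1 and 2, a difference of 0.30 that just missed the threshold (adjusted p = 0.0507 with the block). At the low end, Rpl13a read 616 and 715 in Runx2-null pools 1 and 2, against 562 and 702 in wild-type pools 1 and 2, a difference of 0.08 (SE 0.09, adjusted p = 0.715 with the block). Both pools 2 were above both pools 1 for Rpl13a, with a difference of 0.26 between replicate numbers that was not called (adjusted p = 0.0631).

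**Figure D3:**
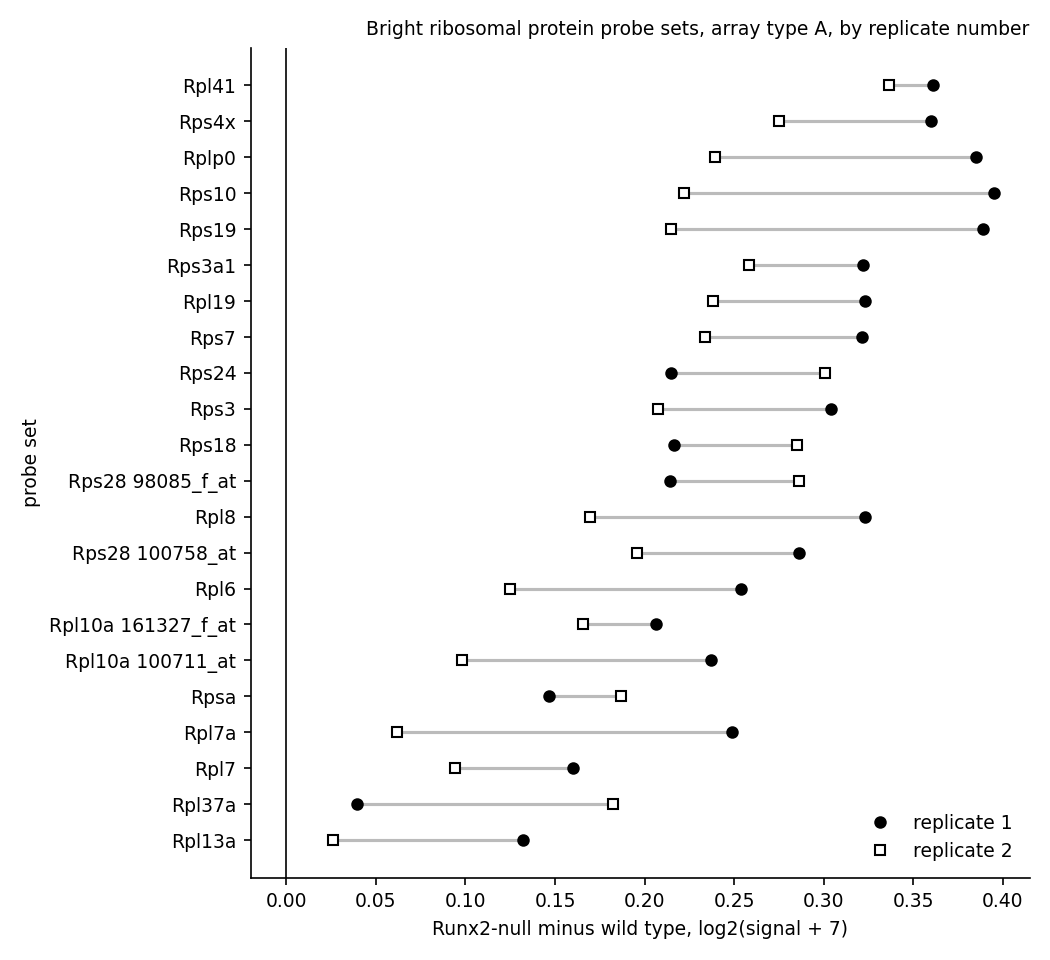
Difference between Runx2-null and wild type, in log2(signal + 7), of each bright ribosomal protein probe set on array type A, within replicate 1 (filled circles) and replicate 2 (open squares). On the deposited scale shown, all 22 probe sets lie right of 0 in both replicate numbers (12 after quantile normalization), from Rpl13a at the bottom (mean 0.08) to Rpl41 at the top (mean 0.35).

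Over the 33 members tested on A and B, the median difference was 0.19, against 0.01 over all 15601 probe sets tested there. Both Runx2-null pools lay above both wild-type pools for 16 members, where 13.6% of all tested probe sets did so, and below them for 2, where 11.7% did. After quantile normalization the member median was 0.055, and members whose genotypes did not overlap numbered 4 in either direction together, against these 18. At an unadjusted p under 0.05 with the block, 18 members were higher, where 7.56% of all were. Higher within both replicate numbers were 23 members, where 32.1% of all were.

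By brightness bin on array type A, the median difference was highest in the brightest 1%. For probe sets other than members it was 0.03 from percentile 98 to 99 and 0.19 above that. The brightest 1% of array type A held 125 tested probe sets, and 18 of them were members with a median difference of 0.26. Another 21 named several genes with a ribosomal one among them, with a median of 0.24, and all 21 were higher within both replicate numbers. The 71 with another single gene symbol had a median of 0.09, and 44 of them were higher within both numbers, while 15 without a symbol had a median of 0.22. With the block, 5 of the 18 members were called higher, and of the 71 others 14 were called higher and 3 lower. From percentile 95 to 99, the 4 members had a median of 0.14 and the 468 others 0.03.

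**Figure D4:**
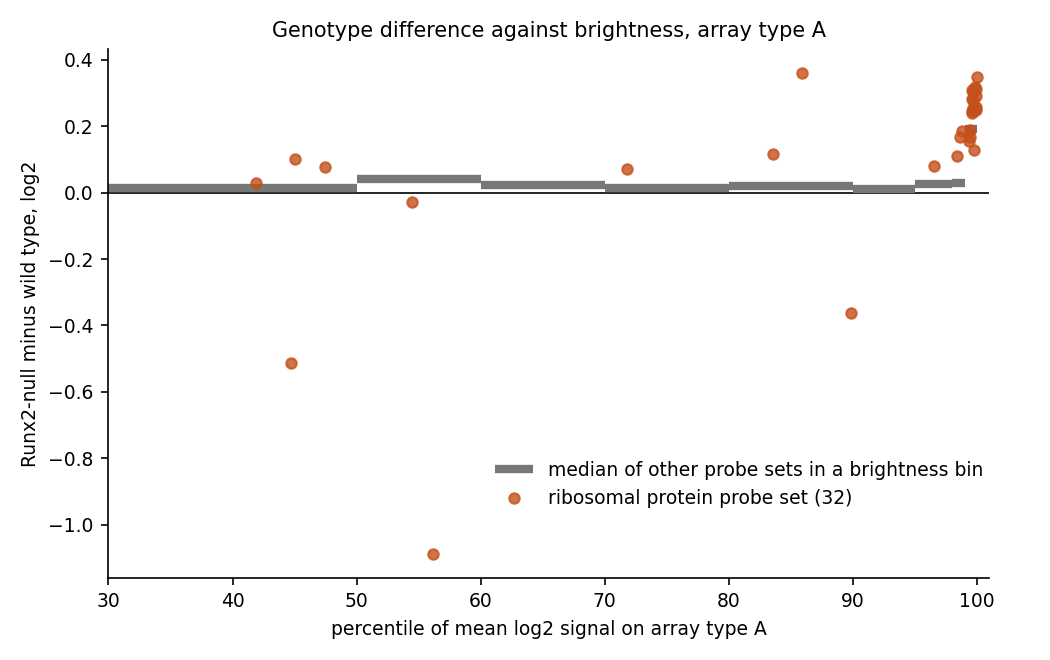
Genotype difference (Runx2-null minus wild type, log2) of the 32 ribosomal protein probe sets tested on array type A against the percentile of their mean log2 signal. Orange points are members and grey bars are the medians of all other tested probe sets in brightness bins. In the brightest 1% the bar (0.19) includes 21 probe sets that name several genes, 1 of them ribosomal, and 15 without a symbol. The 71 there with another single gene symbol had a median of 0.09. Most members sit above the 95th percentile between 0.08 and 0.35, and the lowest point is Rpl39l at -1.09.

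The 10 tested members on A that were not bright had a median of 0.05, with medians of -0.29 in replicate 1 and 0.32 in replicate 2, and 1 was higher within both numbers. That one was Rpl22, of the large subunit, whose brighter probe set read 255 and 249 in Runx2-null pools 1 and 2, against 200 and 190 in wild-type pools 1 and 2. Both Runx2-null pools were the higher, by 0.36 (adjusted p = 0.125 with the block). Its second tested probe set was dim and read 42.6 and 34.7 in Runx2-null pools 1 and 2, against 62.9 and 19.6 in wild-type pools 1 and 2, with overlapping genotypes.

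Several genes had bright and dim probe sets side by side. Rpl19 read 3386 and 2921 in Runx2-null pools 1 and 2, against 2705 and 2475 in wild-type pools 1 and 2, by its bright probe set, a difference of 0.28 (adjusted p = 0.0603 with the block). By its dim probe set it read 15.7 and 40.9 in Runx2-null pools 1 and 2, against 61.5 and 25.3 in wild-type pools 1 and 2, a difference of -0.51 with opposite signs in the 2 replicate numbers. Rps4x had 4 further probe sets on A, all at signals of 33.8 or less. The brightest probe sets named Rps24 and Rps28 differed by only 2.13% to 3.18% on each of the 4 arrays, and whether they read separate transcripts was not tested. The 17 untested members on A, among them probe sets for Rpl32, Rpl35a, Rpl38, Rpl39, Rps13, Rps14, Rps15 and Rps20, read 36.8 or less on every array, near background. Probe sets with the suffix _f, _r, _s or _i can bind related transcripts, and many ribosomal protein genes have processed pseudogenes.

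Between the replicate numbers, members split in direction on the deposited scale, as all tested probe sets did, and were called at similar shares. Replicate 2 minus replicate 1 had a median of 0.01 over the 33 members and -0.03 over all probe sets tested on A and B. Centring each array on its median moved these medians to 0.24 for members and 0.17 for all, so the direction of the members' replicate shift is not settled. With genotype in the model, 4 members were higher in replicate 2, where 11% of all tested probe sets were, and 4 lower, where 12.5% were. Rpl41 fell by 0.57 (adjusted p = 8.06e-05), Rps27 by 0.57, Rpl37a by 0.48 and Rplp0 by 0.23 in replicate 2, and the dimmer of the bright Rpl10a probe sets and Rpsa rose by 0.36, Rpl7l1 by 0.52 and Rps19bp1 by 1.01. Rps19bp1 read 388 and 392 in replicate 2 of Runx2-null and wild type, against 190 and 183 in replicate 1, and its genotype difference was 0.02 (SE 0.18). After centring, 6 members were called higher and 0 lower, where 3541 of all 15601 tested probe sets were called higher and 1281 lower. After quantile normalization 5 members were called higher and 2 lower, where 1688 of all were higher and 1708 lower. Probe sets of Rpl10a, Rpl7l1 and Rps19bp1 were called higher each time. On the deposited scale Rpl41 and Rplp0 were called in both contrasts, which share all 4 arrays, and for Rpl41 the difference between replicate numbers was the greater.

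**Figure D5:**
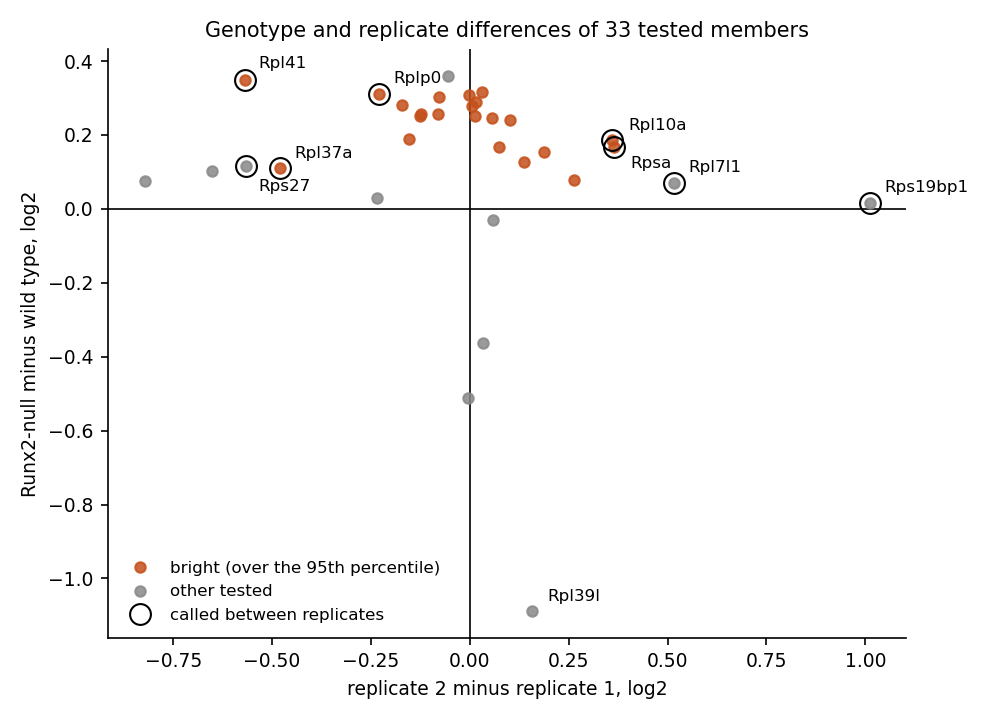
Genotype difference (Runx2-null minus wild type, log2) against replicate difference (replicate 2 minus replicate 1, log2) for the 33 members tested on array types A and B. Orange points are bright members and grey points the others, and rings mark the 8 called between replicates; the bright members lie between 0.08 and 0.35 on the genotype axis and between -0.57 and 0.36 on the replicate axis.

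On array type C, taken as labelled, 4 members were bright and all were higher in Runx2-null within both replicate numbers. Of all 594 bright tested probe sets on C, 46.1% were. Rplp2, an acidic protein of the stalk, read 4666 and 3869 on arrays labelled Runx2-null 1 and 2, against 1849 and 1890 on those labelled wild type 1 and 2, and was called with the block (1.18, SE 0.15, adjusted p = 0.0269), where 1.08% of all tested probe sets on C were called higher. Rplp0 on C differed by 0.92 (adjusted p = 0.059 with the block), against 0.31 on A. After quantile normalization Rplp2 differed by 0.99 (adjusted p = 0.016 with the block) and Rplp0 by 0.69. Rps20 differed by 0.56 and Rps26 by 0.34, both without a call. The 16 tested members on C had a median of -0.11 and 7 were higher, where 3693 of all 7592 tested probe sets on C were. Because the control signals on C split by genotype as labelled, these values were not joined with those of A and B.

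Other genes of the translation machinery were counted on A and B, with 1 probe set per gene and the block. The 9 tested elongation factors and related genes had a median difference of -0.08, with 2 higher and 2 lower within both replicate numbers. Of these 9, 1 was called higher. This was Eef1a1, which brings aminoacyl-tRNA to the ribosome. It read 8247 and 5613 in Runx2-null pools 1 and 2, against 6207 and 4524 in wild-type pools 1 and 2, and rose by 0.36 (adjusted p = 0.015). Tpt1 was the 1 of 8 tested genes fused to or associated with the ribosome that was called higher (0.31, adjusted p = 0.0335). That list had a median of 0.04. Of 29 initiation factors, 1 was called higher, the helicase Eif4a2 (0.34, adjusted p = 0.0498), and the list's median was 0.08. All 3 rest on the block, since 0 genes of these lists were called without it. After quantile normalization Eef1a1 differed by 0.03, Tpt1 by 0.07 and Eif4a2 by 0.34, so Eif4a2 alone of the 3 stayed called (adjusted p = 0.0422 with the block), and centring each array on its median left none called.

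No gene was called with the block among 46 of ribosome assembly and RNA polymerase I, with a median difference of -0.04, nor among 17 regulators of ribosomal protein synthesis, with a median of -0.06. Myc, a transcription factor that drives ribosome production, read 55.3 and 58.6 in Runx2-null pools 1 and 2, against 91.6 and 95.6 in wild-type pools 1 and 2. Both Runx2-null pools were the lower, by -0.65 (adjusted p = 0.0641). The 69 mitochondrial ribosomal protein genes, which build a separate ribosome, had a median of -0.02, with 21 higher and 28 lower within both replicate numbers and 0 called. Over all 10032 genes on A and B the median was 0.01, and 32.4% were higher within both replicate numbers.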

How the data were processed

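Per the labels, total RNA was labelled with biotin and hybridised to 3 array types. The deposited values are MAS5 signals, a linear intensity for each probe set, and the authors' MAS5 version is not stated. Every deposited array had a trimmed mean of 100.0 to 100.1, so the authors had scaled each one, and none was rescaled here. Names came from the platform annotation, and all 71 members were found in a RefSeq gene table of GRCm38.p6.

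A pseudocount, the rounded 20th percentile of each type's values (7 on A, 13 on B, 10 on C), was added before taking log2. Each array type had its own limma fit (version 3.58.1, R 4.3.3; eBayes with a variance trend), planned without a block, and repeated with the replicate number as a block. The block leaves 1 residual degree of freedom and on A 12.7 from other probe sets, so its SE and p rest mostly on those. Array headers show that replicate numbers are scan batches. Residuals of arrays sharing a number correlated at 0.764 on A, 0.595 on B and 0.06 on C. The labels name the pools as biological replicates. Only 4 arrays per type limit the precision. The fit was tested on simulated data.

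Members were named if called, among the 6 lowest p per direction with the block, among the 5 brightest or dimmest, among the 6 largest replicate differences, in a fixed gene set, or where probe sets of 1 gene disagreed; of other lists, up to 3 called genes or the 2 lowest p. Members, lists and rules were chosen with earlier results of these data known. Quantile normalization, centring, pseudocounts, filters and omitted pools were tried as alternatives.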

Additional observations from a re-analysis of the deposited data

How the results depend on the processing

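With 2 pools per genotype, members called between genotypes numbered 0 under each alternative without a block, and leaving out any 1 pool also gave 0. With the replicate block 6 were called, 1 after quantile normalization, 1 after centring arrays on their median and 11 with adjustment within array types; these 3 combinations were chosen after seeing the data. The block also gave 1 call each among elongation factors, initiation factors and genes fused to or associated with the ribosome. The genotype median of members, 0.19, was 0.055 after quantile normalization, 0.18 after centring, 0.13 without a filter, 0.24 with a 60th percentile filter, 0.17 with array type C added, 0.25 with 1 probe set per gene and 0.19 to 0.26 with a pool left out. Chosen after seeing the data, it was 0.23 with several-symbol probe sets added, 0.25 above the 95th percentile and 0.24 without paralogs and Rps19bp1. Members with genotypes not overlapping numbered 18, 4 after quantile normalization and 24 to 28 with a pool left out, where fewer arrays must be ordered. Members called between replicates numbered 8, but 1 without a variance trend; their median, 0.01, was 0.074 after quantile normalization, 0.24 after centring, -0.090 without a filter and -0.022 to 0 with a pool left out. With a pool left out, the genotype difference crossed 0 for 12 named probe sets: Rpl10a (dimmer) ranged from -0.0037 to 0.38, Rpl13a from -0.080 to 0.24, Rpl19 (dim) from -1.05 to 0.030, Rpl22 (dim) from -0.62 to 0.77, Rpl37a from -0.17 to 0.39, Rpl7l1 from -0.27 to 0.41, Rps19bp1 from -0.50 to 0.54, Rps27 from -0.27 to 0.51, Rps28 (dim) from -0.40 to 0.60, Rps29 from -0.23 to 0.17, Rps4x (dim) from -0.20 to 0.26, and Rpsa from -0.026 to 0.36. Calls between replicates with a pool left out were not run, since that fit keeps no residual degrees of freedom. The cause of these changes was not tested. Dim members near background limit what could be called.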
